A study of Mus musculus with 5 samples.

Results

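Of 13339 genes listed in an RNA sequencing time course of LPS-treated mouse macrophages, the 10 described here are the sestrin genes Sesn1, Sesn2 and Sesn3, the stress-induced inhibitor gene Ddit4, the genes Depdc5, Tsc1, Tsc2 and Flcn of the complexes that gate the kinase mTOR, and Mtor and Rptor of the kinase complex itself. They were picked by symbol, all 10 symbols were found, and the choice was made with earlier results of these FPKM values known, so every value below is a description. FPKM divides a gene's fragments by its transcript length and by the size of the library. The cells were bone marrow-derived macrophages of 8-week-old C57BL/6 mice, which had differentiated over 5 days under the growth factor M-CSF, and the sample titles mark all of them as wild type (WT2, the number being unexplained). They received lipopolysaccharide (LPS), a bacterial wall component sensed through TLR4, at 100 ng/ml for 4, 8, 12 or 24 h, and the 0 h cells received none. Each time point was 1 library, so a difference compares a pair of libraries, without a replicate check or a p-value. Cells kept without LPS for the later times were not analysed here, and time in culture and time in LPS cannot be told apart. How many mice gave the cells is not stated in the labels.

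The kinase mTOR works in complexes, of which mTORC1, built around the scaffold raptor (Rptor), drives protein, lipid and nucleotide synthesis and holds back autophagy. It is switched on at the lysosome by Rag GTPases, which report amino acids, and by the GTPase Rheb, which reports growth factors and energy. GATOR1, with its subunit Depdc5, turns the Rag signal off; sestrins bind and restrain GATOR2, the inhibitor of GATOR1, when leucine is scarce. The complex of Tsc1 and Tsc2 turns Rheb off, and Ddit4 (also REDD1) acts through it under low oxygen or other stress. Folliculin (Flcn) acts on RagC and RagD and, unlike the others, is needed for mTORC1 to phosphorylate the lysosomal transcription factors TFEB and TFE3. In macrophages this network is known for tying the metabolic shift after LPS to nutrient supply.

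The markers of macrophages summed to between 2753 and 3260 FPKM in the 5 libraries, all 8 being listed; among them Lyz2 stood at only 19.1 to 37.5 FPKM. The 7 listed neutrophil markers (of 8) summed to 339, 321, 254, 180 and 58.8 FPKM from 0 h to 24 h, the 7 dendritic markers to 47.5 at 0 h and 14.9 at 24 h, and the 5 listed lymphoid markers to 0.85 FPKM or less, with Nkg7 at 0 at 4 h and 8 h. Of the neutrophil markers Ly6g alone was higher at 24 h, with 3.71 FPKM beside 0.12 before LPS. The stromal markers, all 5 being listed, summed to 5.19, 9.54, 11.4, 9.28 and 4.28 FPKM from 0 h to 24 h. The part of these cells in the results was not tested. The median of the 9795 genes with a mean of at least 1 FPKM differed from 0 h by -0.70, -0.49, -0.35 and -0.11 on the log2(FPKM + 1) scale after 4, 8, 12 and 24 h. Counts after centring on this median are given beside the others where they differ. Steps between low values put the depth at about 18.9 to 19.2 M (mega) reads per library, which sets the counting intervals below. Among larger depths, steps near 2 times that value (37.7 to 39.0 M) matched best in 4 of 5 libraries, by 18.8 to 27.0 points over chance beside 23.2 to 32.8. At such a depth the read numbers below would be about 2 times as large and the intervals narrower, so overlaps that are slight here could be lost. The extraction text of the labels names dendritic cells (mDCs), whereas the growth and treatment texts name macrophages. Of the dendritic markers Zbtb46 and Flt3 stayed at or below 0.25 and 0.53 FPKM in every library, whereas Itgax, which macrophages also express, had 43.96 FPKM before LPS and 4.65 after 24 h, and Ccr7 1.2 before LPS and 14.82 after 8 h.

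Sesn1 carried nearly all sestrin transcript before LPS and was the lowest of the 10 members at 4 h. Sesn1 (gene 140742; chromosome 10, 41810574 to 41908436, plus strand, GRCm38) stood at 64.76 FPKM before LPS, then 0.35, 1.03, 1.28 and 4.81 after 4, 8, 12 and 24 h. The 0 h library was far above the 4 others, and the 24 h library was above those of 4, 8 and 12 h. In a bulk library fewer cells with a transcript and less transcript per cell cannot be told apart. The 4 h level was 185-fold below 0 h and stood for roughly 17 reads at the estimated depth. Its 95% interval by Poisson counting was 0.204 to 0.56 FPKM. Such intervals cover counting error only, and take the shortest coding transcript, which makes them widest. The log2 difference of 4 h from 0 h, -5.61, was the 3rd lowest of the 9795 genes. At 24 h the level was 7.43% of that at 0 h, a log2 difference of -3.50 and the 40th lowest. Within the library, Sesn1 stood at percentile 88.9 of these genes at 0 h, at 2.18 at 4 h and at 26.2 at 24 h.

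Sesn1 has 2 coding transcripts, of 3809 and 2600 nt, and 2 starts in RefSeq, and the deposited values give 1 number for both. The 250 bases before each start, from RefSeq's GRCm38.p6 table, are shown because they belong to the member with the widest range. The windows are chr10:41810324-41810573 and chr10:41887189-41887438, plus strand, 70.0% and 71.2% G and C. None of the motifs named below was found in either, and no letters are in capitals.
Sesn1, first start: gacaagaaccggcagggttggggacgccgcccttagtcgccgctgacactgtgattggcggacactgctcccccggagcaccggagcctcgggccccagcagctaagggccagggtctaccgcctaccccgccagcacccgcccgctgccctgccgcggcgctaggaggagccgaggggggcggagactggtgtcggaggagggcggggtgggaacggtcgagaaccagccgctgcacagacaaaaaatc
Sesn1, second start: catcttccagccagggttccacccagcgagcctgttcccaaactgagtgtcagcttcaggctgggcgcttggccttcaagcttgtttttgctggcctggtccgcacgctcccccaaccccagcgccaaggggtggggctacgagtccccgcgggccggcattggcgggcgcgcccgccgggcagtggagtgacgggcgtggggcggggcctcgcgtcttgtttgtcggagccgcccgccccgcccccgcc

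Sesn2, the sestrin best known as a leucine sensor, had a different course. Sesn2 (gene 230784; chromosome 4, 132492804 to 132510456, minus strand) stood at 2.98 FPKM before LPS, then 0.68, 2.13, 9.44 and 9.15 after 4, 8, 12 and 24 h. The 12 h and 24 h libraries overlapped in their counting intervals (8.71 to 10.2 and 8.43 to 9.91 FPKM), and both were above 0 h, whereas 4 h was the lowest. The level at 24 h was 3.07-fold that at 0 h and 13.5-fold that at 4 h, with log2 differences of 1.35 and 2.59; the difference from 4 h was the 131st highest of 9795. The 4 h library lay 4.38-fold below 0 h, at a log2 difference of -1.24. That difference became -0.55 after centring, so relative to the median gene it was under 2-fold on the log2(FPKM + 1) scale. This scale shrinks the folds of low genes. With a pseudocount of 0.1 in place of 1 FPKM the difference before centring was -1.98. The largest step upward was between 8 h and 12 h, at 4.43-fold. The window before its start (chr4:132510457-132510706, minus strand) is set here against those of Sesn1 and also holds none of the motifs.
Sesn2: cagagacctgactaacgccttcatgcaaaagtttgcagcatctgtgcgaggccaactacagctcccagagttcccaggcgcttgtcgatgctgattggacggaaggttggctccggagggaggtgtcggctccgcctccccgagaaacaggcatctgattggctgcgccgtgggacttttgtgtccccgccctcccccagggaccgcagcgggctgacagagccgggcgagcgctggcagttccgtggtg

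Sesn3, the third sestrin gene (gene 75747; chromosome 9, 14276301 to 14326134, plus strand), was low throughout. It stood at 0.12 FPKM before LPS, then 1.22, 0.59, 0.77 and 0.82 after 4, 8, 12 and 24 h. Its mean of 0.70 FPKM was under the filter, so it enters no count. The 0 h value stands for about 3.8 reads at that depth and has an interval of 0.0313 to 0.314 FPKM, below those of the 4 stimulated libraries, of which the lowest started at 0.354. The stimulated libraries all overlapped one another in these intervals, the highest being 4 h (0.865 to 1.67) and the lowest 8 h (0.354 to 0.923). The reads and intervals take its shortest coding transcript, 1700 nt, whereas the longest has 9125 nt. With that one the reads would be more and the intervals narrower, and overlaps could be lost.

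FPKM is a level per transcript length, so the 3 sestrin genes can be added within a library. Their sum was 67.86 FPKM before LPS, then 2.25, 3.75, 11.49 and 14.78 after 4, 8, 12 and 24 h. Sesn1 made up 95.4% of it before LPS, and 15.6%, 27.5%, 11.1% and 32.5% after 4, 8, 12 and 24 h. Sesn2 made up 4.39%, 30.2%, 56.8%, 82.2% and 61.9% at the same times, and Sesn3 had its highest share, 54.2%, at 4 h. The leading sestrin transcript was thus Sesn1 at 0 h, Sesn3 at 4 h and Sesn2 from 8 h on. At 4 h the intervals of Sesn3 and Sesn2 overlapped between 0.865 and 0.912 FPKM. At the estimated depth and with the shortest Sesn3 transcript their order is thus within counting error. These shares are ratios within a library and do not move with the scaling between libraries.

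**Figure D1:**
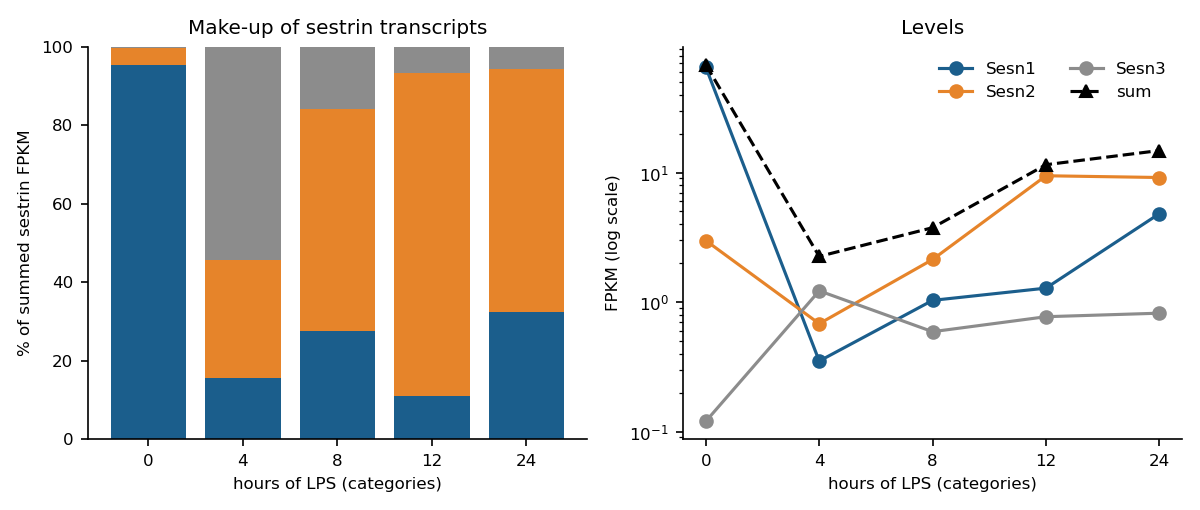
Left, share of each sestrin gene in the summed sestrin FPKM (percent) at each time, with colours as in the right panel; right, FPKM on a log axis of Sesn1, Sesn2, Sesn3 and their sum, 1 library per point. Sesn1 is 95.4% of the sum at 0 h and Sesn2 82.2% at 12 h, while the sum is 67.86 FPKM at 0 h and 14.78 at 24 h.

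Ddit4 was the only restraint member over the filter that was above 0 h in all 4 stimulated libraries. Ddit4 (gene 74747; chromosome 10, 59949675 to 59951770, minus strand) stood at 0.74 FPKM before LPS, then 2.47, 2.71, 5.73 and 4.24 after 4, 8, 12 and 24 h. The 12 h library was the highest, 7.74-fold above 0 h, and the intervals of 12 h (4.94 to 6.62) and 24 h (3.56 to 5.01) met at their ends. Those of 4 h and 8 h, 1.96 to 3.07 and 2.18 to 3.33, overlapped. On the log2 scale the differences from 0 h were 1.0, 1.09, 1.95 and 1.59 after 4, 8, 12 and 24 h, the first being just under 2-fold before rounding. With a pseudocount of 5 in place of 1 FPKM they were 0.38, 0.43, 0.90 and 0.69. Ddit4 was 3.63-fold the level of Sesn2 at 4 h and 0.463-fold at 24 h. Its relative Ddit4l stayed at or below 0.18 FPKM in every library.

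Ddit4 is known as a target of the hypoxia factor HIF-1, so the window before its start is shown, chr10:59951771-59952020, minus strand, with the core letters of the hypoxia response element, ACGTG, in capitals. They begin 187 bases before the start. Either strand of these letters occurs in 16.6% of 32851 promoter windows of the same length, and among the 11 windows of the members in 2, those of Ddit4 and Rptor.
Ddit4: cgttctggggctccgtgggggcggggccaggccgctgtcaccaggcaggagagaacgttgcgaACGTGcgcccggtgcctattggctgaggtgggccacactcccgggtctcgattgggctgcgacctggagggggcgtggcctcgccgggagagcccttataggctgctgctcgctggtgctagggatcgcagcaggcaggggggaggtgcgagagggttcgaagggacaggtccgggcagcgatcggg

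Depdc5, a subunit of GATOR1 (gene 277854; chromosome 5, 32863646 to 32994233, plus strand), stood at 2.52 FPKM before LPS, then 1.14, 1.91, 3.12 and 4.71 after 4, 8, 12 and 24 h. The 4 h library was the lowest and the 24 h library the highest, 4.13-fold apart, and from 4 h on each later library lay above the one before. Its log2 difference from 0 h was -0.72 after 4 h, close to the median of all genes, and 0.70 after 24 h. The difference of 24 h from 4 h was 1.42, and 0.93 with libraries centred. Depdc5 is a long gene, and the group of genes with the longest transcripts (the last of 10 equal groups by length) had medians of -0.06 at 4 h and 0.35 at 24 h against 0 h. With this trend by length removed, Depdc5 stood at -0.66 and 0.35.

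Tsc1 and Tsc2, whose proteins form the complex that inactivates Rheb, were lower at 4 h and 8 h than at 0 h and nearer to it at 24 h. Tsc1 (gene 64930; chromosome 2, 28640993 to 28691172, plus strand) had 5.64 FPKM before LPS, then 2.48, 2.46, 3.14 and 5.49 after 4, 8, 12 and 24 h. The 0 h and 24 h libraries overlapped in their counting intervals (5.26 to 6.04 and 5.11 to 5.89), and so did those of 4 h and 8 h. Tsc2 (gene 22084; chromosome 17, 24595816 to 24632676, minus strand) had 13.83, 8.71, 7.10, 9.38 and 11.32 FPKM at the same times, lowest at 8 h and highest at 0 h. Neither gene was 2-fold apart from 0 h on the log2(FPKM + 1) scale in any library: the largest differences were -0.94 for Tsc1 and -0.87 for Tsc2, both at 8 h. With libraries centred, the 4 h differences were -0.24 for Tsc1 and 0.08 for Tsc2, so that of Tsc2 had the other sign. Both are long genes, and with the trend by length removed Tsc1 stood at -0.87 at 4 h and -0.38 at 24 h. Tsc2 then stood at -0.33 and -0.42, so neither changed sign. As a ratio of levels, Tsc1 was 2.27-fold lower at 4 h and 2.29-fold lower at 8 h. Tsc2 exceeded Tsc1 in each library, by 2.45-fold before LPS and 3.51-, 2.89-, 2.99- and 2.06-fold after 4, 8, 12 and 24 h. Exons of Tsc2 share 693 bases with exons of Pkd1 on the other strand in GENCODE M21, and the sources used here do not say whether counting used the strand. Pkd1 itself stood at 0.64 to 3.38 FPKM.

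Flcn had a log2 range of 2.87 over the 5 libraries, beside 5.61 for Sesn1 and 2.64 for Sesn2. After centring these were 2.18, 4.91 and 2.29. Flcn (gene 216805; chromosome 11, 59791408 to 59810039, minus strand) stood at 32.44 FPKM before LPS, then 3.57, 12.38, 14.84 and 18.42 after 4, 8, 12 and 24 h. The 4 h library was 9.09-fold below 0 h, a log2 difference of -2.87 that was the 165th lowest of 9795 genes and -2.18 when centred. From 4 h to 8 h the level was 3.47-fold higher, and at 24 h it had reached 56.8% of that at 0 h, a log2 difference of -0.78. The interval of the 4 h library (3.07 to 4.12) lay below those of all 4 others. The window before its start, chr11:59810040-59810289, minus strand, is shown because it holds the full cAMP response element TGACGTCA (capitals, beginning 49 bases before the start), which 1.55% of the 32851 windows hold and which no other member's window does.
Flcn: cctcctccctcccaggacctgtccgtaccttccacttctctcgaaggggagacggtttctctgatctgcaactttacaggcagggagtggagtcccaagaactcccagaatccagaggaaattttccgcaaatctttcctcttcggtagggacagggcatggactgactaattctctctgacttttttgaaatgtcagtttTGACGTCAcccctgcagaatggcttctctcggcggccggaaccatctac

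Mtor and Rptor, the kinase and its scaffold, had log2 ranges of 0.51 and 0.71 as deposited, the narrowest of the 9 members over the filter. After centring they were 1.0 and 0.87, wider than those of Tsc1 (0.53), Tsc2 (0.47) and Depdc5 (0.83). Mtor (gene 56717; chromosome 4, 148448582 to 148557685, plus strand) stood at 4.15 FPKM before LPS, then 5.35, 5.74, 6.26 and 6.34 after 4, 8, 12 and 24 h, a range of 1.53-fold. Its stimulated libraries overlapped one another in their intervals, and the interval of 0 h (3.27 to 5.19) met that of 24 h (5.24 to 7.60) nowhere. These intervals take its shortest coding transcript, 1003 nt, whereas the longest has 8564 nt. With that one they would be narrower, and overlaps could be lost. Rptor (gene 74370; chromosome 11, 119602905 to 119899591, plus strand) stood at 5.70, 6.57, 4.41, 6.14 and 7.83 FPKM, lowest at 8 h and highest at 24 h, a range of 1.78-fold. The log2 differences from 0 h at 4 h were 0.30 for Mtor and 0.18 for Rptor as deposited, and with libraries centred they were 1.0, just under 2-fold, and 0.87. Both are long genes, and with the length trend removed these were 0.37 and 0.24 at 4 h, and 0.16 and 0.05 at 24 h. Mtor was 6th of the 10 members in level at 0 h, 3rd at 4 h and 5th at 24 h.

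**Figure D2:**
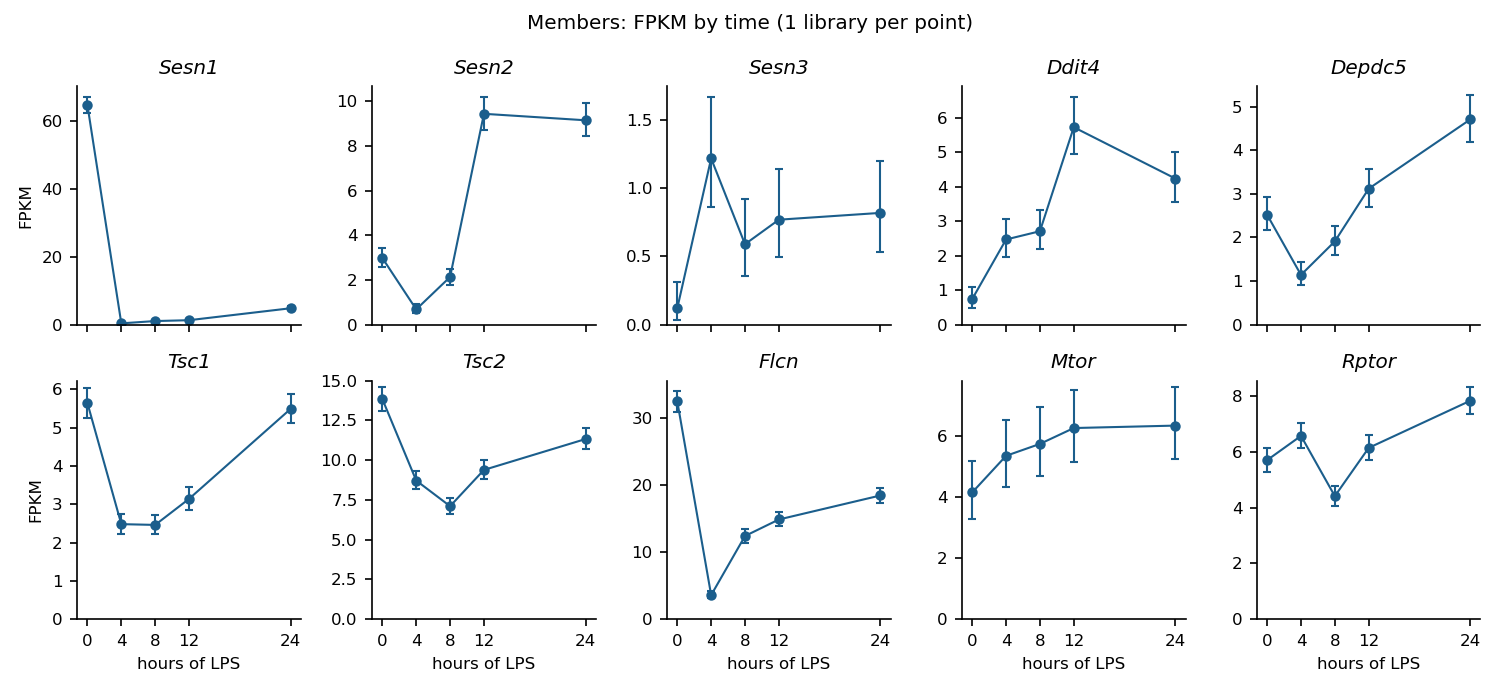
FPKM (y axes, each from 0 and on its own scale) of the 10 members against hours of LPS, 1 library per point. Bars are the 95% Poisson interval of counting error at the estimated depth and for the shortest coding transcript. Sesn1 goes from 64.76 FPKM before LPS to 0.35 after 4 h, Flcn, Depdc5 and Sesn2 are lowest at 4 h, and Ddit4 and Sesn2 are highest at 12 h.

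The order of the members by level changed between libraries. At 0 h it was Sesn1, Flcn, Tsc2, Rptor, Tsc1, Mtor, Sesn2, Depdc5, Ddit4 and Sesn3. Neighbours whose counting intervals overlapped were Rptor with Tsc1, Mtor with Sesn2 and Sesn2 with Depdc5. With longer transcripts of Mtor, Sesn3 or Depdc5 in place of the shortest, their intervals would be narrower and overlaps could be lost. At 4 h Tsc2, Rptor, Mtor and Flcn led and Sesn1 was last, with Sesn3, Depdc5, Sesn2 and Sesn1 each overlapping the next. At 24 h it was Flcn, Tsc2, Sesn2, Rptor, Mtor, Tsc1, Sesn1, Depdc5, Ddit4 and Sesn3, and from Rptor to Ddit4 each overlapped the next. The span from the first to the last was narrower at 4 h, from 8.71 to 0.35 FPKM, than at 0 h, from 64.76 to 0.12.

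Counted with all genes over the filter, 3 of the 9 members (33.3%) were lower by 2-fold or more in the 4 h library than in the 0 h library, Sesn1, Sesn2 and Flcn, against a background of 38.1% of 9795 genes. None was at least 2-fold higher, against 12.2%. With libraries centred on the median gene 1 was higher (Ddit4) and 2 were lower (Sesn1 and Flcn), and among all genes 2108 were higher and 1315 lower, in place of 1197 and 3729. At 24 h against 0 h Sesn2 and Ddit4 were higher (2 of 9; background 11.3%) and Sesn1 was lower (1 of 9; background 14.5%). Centred, the member counts were the same, with 1232 of all genes higher and 1201 lower. At 24 h against 4 h Sesn1, Sesn2, Depdc5 and Flcn were higher (4 of 9; background 25.0%) and 0 were lower (background 8.19%). Centred, this comparison had 945 of all genes higher and 1503 lower, in place of 2448 and 802, and Depdc5 at 0.93 was under 2-fold. The median difference of the 9 members was -0.72 at 4 h, close to the -0.70 of all genes, and 0.40 at 24 h beside -0.11. The comparisons share the 0 h or the 4 h library, and since the members were chosen with these values known, nothing is read from the shares.

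**Figure D3:**
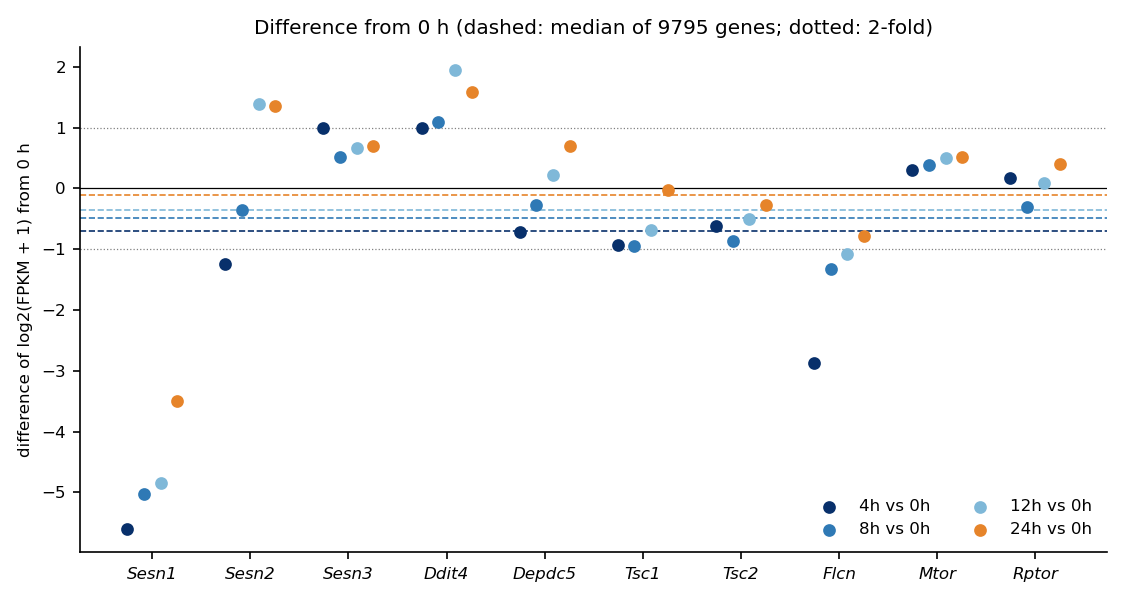
Difference of log2(FPKM + 1) from the 0 h library for the 10 members at 4, 8, 12 and 24 h (points), with the median of 9795 genes at each time (dashed lines of the same colour) and the 2-fold bounds (dotted). Sesn1 lies between -5.61 and -3.50, Ddit4 lies above 0 at each time, and Mtor and Rptor stay within 2-fold.

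The remaining subunits of the mTOR complexes were not alike. Of 10 listed, 8 were over the filter; 2 were at least 2-fold above 0 h and 3 below it in the 4 h library, and 1 above and 0 below in the 24 h library. After centring 2 were above and 1, Akt1s1, below at 4 h. For these lists the shares among all 9795 genes were 12.2% higher and 38.1% lower at 4 h, and 11.3% and 14.5% at 24 h. Centred list counts belong beside the centred counts of the 9795 genes. These were 2108 higher and 1315 lower at 4 h, and 1232 and 1201 at 24 h against 0 h. Rictor, the scaffold that defines the second complex, mTORC2, stood at 1.89 FPKM before LPS, then 9.83, 8.67, 7.07 and 6.09 after 4, 8, 12 and 24 h. Rptor had 3.02 times the level of Rictor before LPS, and 0.668, 0.509, 0.868 and 1.29 times it after 4, 8, 12 and 24 h, so the order of the scaffolds was the reverse of that at 0 h from 4 h to 12 h. Prr5l, a partner of mTORC2, had 1.90 FPKM before LPS and 6.91 after 4 h. Akt1s1 (PRAS40), an inhibitory subunit of mTORC1, stood at 32.58, 6.34, 14.67, 17.34 and 19.68 FPKM, and Mlst8, a subunit of both complexes, at 6.49, 1.56, 2.81, 4.39 and 6.89. Deptor, an inhibitor that binds mTOR, was under the filter, with 3.51 FPKM before LPS, 0.54 after 4 h and 0.07 to 0.18 from 8 h on.

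**Figure D4:**
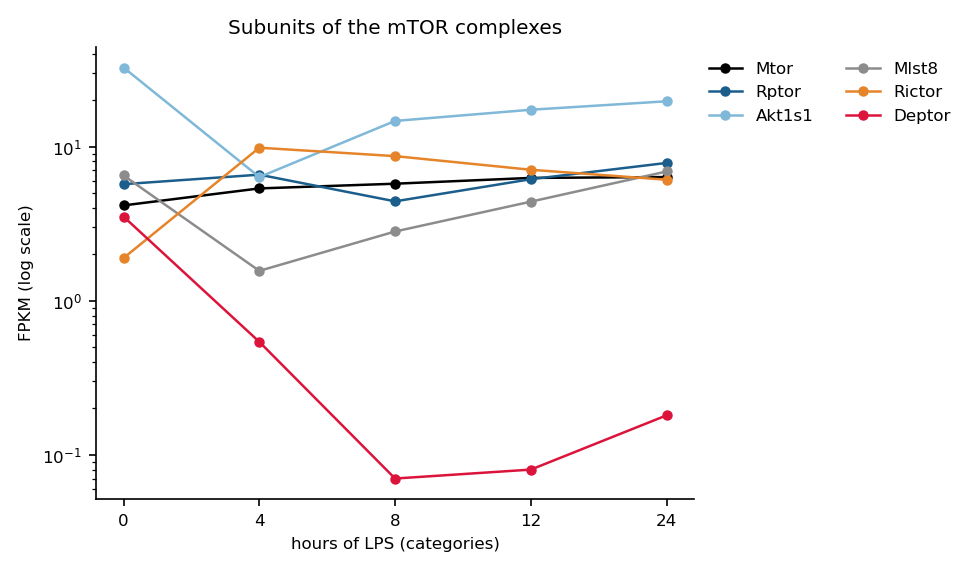
FPKM on a log axis of Mtor, Rptor, Akt1s1, Mlst8, Rictor and Deptor at each time (categories on the x axis), 1 library per point. Rictor lies below Rptor at 0 h and above it from 4 h to 12 h, while Deptor goes from 3.51 to 0.07 FPKM at 8 h.

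Among GATOR and KICSTOR genes, which hold the partners of Depdc5 and the GATOR2 complex that sestrins bind, 2 of 11 over the filter were at least 2-fold higher at 4 h and 3 lower, with a median of -0.65 beside -0.70 for all genes, or 0.05 when centred. After centring 2 were higher and 0 lower at 4 h. At 24 h 1 was higher and 0 lower. Wdr59, a GATOR2 subunit, stood at 2.37 FPKM before LPS, then 13.30, 13.87, 10.03 and 3.38 after 4, 8, 12 and 24 h, and Seh1l, which also serves the nuclear pore, at 9.89 FPKM before LPS and 27.21 after 4 h. Wdr24, another GATOR2 subunit, went the other way, with 7.93 and 2.14 FPKM. Nprl2, of GATOR1, was at 10.80 FPKM before LPS, 2.69 after 4 h and 7.90 after 24 h, and Nprl3, its partner, at 4.26, 2.91 and 3.06. The ratio of Depdc5 to Nprl3 was 0.592 before LPS, 0.392 after 4 h and 1.54 after 24 h. Gatsl2 stood at 2.76, 0.54 and 7.13 FPKM at 0, 4 and 24 h, while Gatsl3 (Castor1, an arginine sensor), under the filter, had 3.03, 0.17 and 0.38.

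Rag and Ragulator genes with the folliculin partners had a median of -1.51 at 4 h, and 6 of 11 were below 0 h by 2-fold or more and 0 above it, where 38.1% of all genes were below. After centring the median was -0.81, with 5 below. At 24 h the median was -0.69, with 4 lower and 0 higher. Rragd, whose protein is acted on by folliculin, stood at 10.36 FPKM before LPS, then 0.75, 1.03, 1.60 and 1.31 after 4, 8, 12 and 24 h, and Rragc, its relative, at 150.79, 119.90, 127.09, 108.33 and 92.34. The Ragulator gene Lamtor4 had 64.20 FPKM before LPS, 12.69 after 4 h and 25.56 after 24 h. Fnip2, a binding partner of folliculin, stood at 71.28, 16.92, 43.21, 66.53 and 72.08 FPKM, lowest at 4 h like Flcn. The ratio of Flcn to Fnip2 was 0.455 at 0 h and between 0.211 and 0.287 afterwards. Of the TSC list, Rheb stayed between 39.43 and 51.51 FPKM, Tbc1d7, the third TSC subunit, had 4.37, 1.81 and 5.80 at 0, 4 and 24 h, and Rhebl1, a Rheb relative, 2.48, 0.13 and 1.15. Of these 3 genes Rhebl1 was at least 2-fold lower at 4 h, and none after centring. Rhebl1 passed the filter on the mean only with its 0 h value, so its count as lower follows in part from the filter.

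The energy sensor AMPK and its activator LKB1 had a median of -1.13 at 4 h, with 5 of 9 at least 2-fold lower and 0 higher, and of -0.30 at 24 h, with 1 lower. Beside the 38.1% of all genes that were lower at 4 h, 5 of 9 shrank to 1, Prkag2, after centring, with a median of -0.44. Prkag2, a regulatory subunit, stood at 8.64 FPKM before LPS, then 0.50, 0.06, 0.38 and 1.99 after 4, 8, 12 and 24 h. It passed the filter on the mean only with its 0 h value, so its count as lower follows in part from the filter. Prkaa1, a catalytic subunit, was at 9.88, 7.60, 9.90, 10.25 and 15.56. In the PI3K and AKT list, upstream of the TSC complex, 4 of 13 were at least 2-fold higher and 3 lower at 4 h (median 0.02), and 1 higher and 0 lower at 24 h. After centring 4 were higher and 1 lower at 4 h, with a median of 0.72. Pik3ap1, an adaptor of PI3K in TLR signalling, had 53.11 FPKM before LPS, 364.30 after 4 h and 380.95 after 24 h, and Pik3r5, a regulatory subunit, 76.02, 282.91 and 101.11. Inpp5d (SHIP1), a phosphatase that opposes PI3K, had 45.75, 2.91 and 57.03.

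Genes of the proteins through which mTORC1 acts had a median of -1.39 at 4 h, with 9 of 14 at least 2-fold lower and 0 higher, and of -0.01 at 24 h, with 4 lower and 0 higher. Among all genes 38.1% were lower at 4 h, and after centring the list had 4 lower and 2 higher (Mitf and Eif4e), with a median of -0.70. Tfeb, which folliculin links to mTORC1, stood at 48.58 FPKM before LPS, then 1.32, 4.05, 9.31 and 10.97 after 4, 8, 12 and 24 h. Lpin1, a phosphatidate phosphatase, was at 7.52, 0.12, 0.04, 0.20 and 0.53. Its mean passed the filter only with the 0 h value, so its count as lower follows in part from the filter. Mitf, a relative of Tfeb, had 18.01, 32.52 and 31.16 FPKM at 0, 4 and 24 h, Eif4e, the cap-binding factor, 11.98, 18.18 and 19.70, and Eif4ebp2, a repressor of Eif4e, 9.57, 5.57 and 17.06. These are transcript levels, and the phosphorylation by which mTORC1 acts was not measured.

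Transcription factors known to act on the members went both ways. Of 10, 2 were at least 2-fold higher and 5 lower at 4 h, and 4 higher and 2 lower at 24 h. After centring 2 were higher and 2 lower at 4 h. Epas1, counted as lower at 4 h and 24 h as deposited, stood at 4.24, 1.29, 0.32, 0.42 and 0.30 FPKM. It passed the filter on the mean only with its 0 h value, so its count as lower follows in part from the filter. Hif1a, which is known to act on Ddit4, stood at 17.39 FPKM before LPS, then 68.31, 120.01, 139.10 and 43.99 after 4, 8, 12 and 24 h, highest at 12 h. Atf4, which acts on Sesn2 and Ddit4, stood at 72.39, 69.37, 107.33, 146.80 and 256.52, highest at 24 h. Foxo4 had 15.07 FPKM at 0 h and 2.08 at 4 h, Foxo3 2.61, 0.56, 1.15, 5.43 and 7.68, and Trp53, which encodes p53, 27.98, 20.92, 12.08, 12.86 and 15.98. FoxO factors and p53 are known to act on sestrin genes. Whether any of these factors acted on the members here was not tested.

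Other targets of these factors did not share one direction. Of 10 p53 targets 2 were at least 2-fold higher and 5 lower at 4 h (median -1.06), with the cell cycle inhibitor Cdkn1a at 34.93 FPKM before LPS and 1047.40 after 4 h, and Trp53inp1, a stress protein, at 6.62 and 0.63. After centring 3 were higher and 2 lower at 4 h (median -0.36). At 24 h 2 were higher and 1 lower. Of 10 FoxO targets 2 were higher and 6 lower at 4 h (median -1.19), and 0 higher and 2 lower at 24 h. After centring they were 4 higher and 3 lower at 4 h (median -0.49), and 1 higher and 2 lower at 24 h. Ccng2, an atypical cyclin, had 12.12 and 57.90 FPKM at 0 h and 4 h, and Gabarapl1, an autophagy gene, 108.32 and 22.50. Of 13 ATF4 targets 4 were higher and 3 lower at 4 h (median 0.39). At 24 h 6 were higher and 0 lower (median 0.92), led by Nupr1 and the cystine importer gene Slc7a11. Both were above 0 h from 4 h on. From 0 h to 24 h Nupr1 stood at 9.46, 216.61, 322.65, 205.69 and 108.49 FPKM, highest at 8 h. Slc7a11 stood at 3.44, 27.37, 18.73, 35.91 and 42.16. Another of the 6 passed the filter on the mean only with its 24 h value, so its count as higher follows in part from the filter. After centring the ATF4 list had 7 higher and 2 lower at 4 h, and 7 higher and 0 lower at 24 h. Of all 9795 genes, 2108 were then higher and 1315 lower at 4 h, and 1232 and 1201 at 24 h. Of 10 HIF targets 3 were higher and 3 lower at 4 h (median -0.42, or 0.28 when centred), and 7 higher and 0 lower at 24 h (median 2.63), where Egln3, an oxygen sensor, stood at 20.33 FPKM against 0.40 at 0 h. Against 4 h, 9 of the 10 HIF targets were at least 2-fold higher at 24 h, and 7 after centring, where 25.0% of all genes were higher as deposited and 945 of 9795 after centring. At 4 h against 0 h the centred HIF list had 3 higher and 1 lower. The ATF4 list shares Vegfa with the HIF list and Ddit3 with the list of factors; these were at 2.27 and 4.73 FPKM at 4 h, against 20.31 and 24.10 at 0 h.

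**Figure D5:**
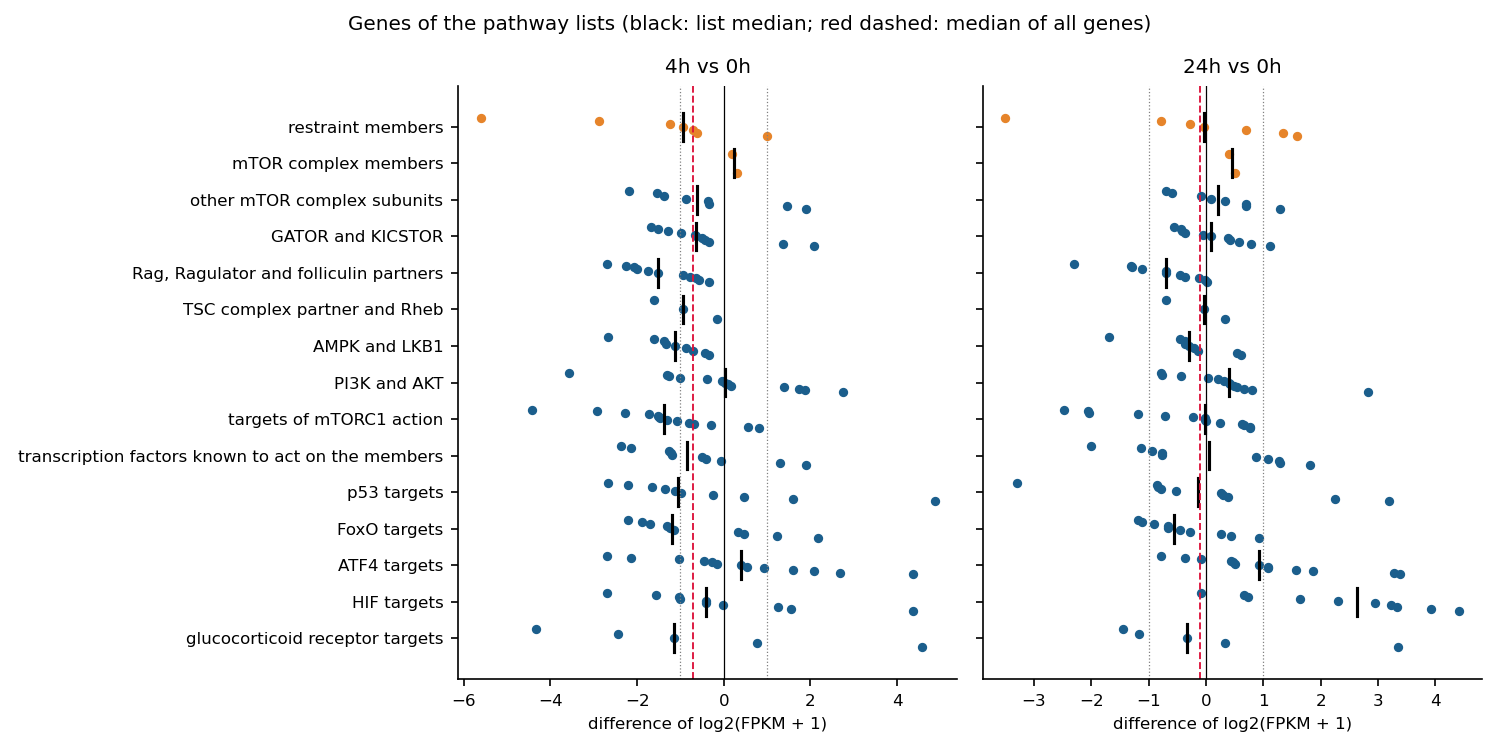
Difference of log2(FPKM + 1) at 4 h (left) and 24 h (right) against 0 h for the genes over the filter in each list (points; members in orange), with the list median (black bar), the median of all genes (red dashed) and the 2-fold bounds (dotted). The list of Rag, Ragulator and folliculin partners has a median of -1.51 at 4 h (all genes -0.70), and that of HIF targets a median of 2.63 at 24 h.

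Genes with the time course most like a member were selected by the Euclidean distance between log2(FPKM + 1) profiles over the 5 libraries, each centred on its own mean. The libraries are the same for all genes, and 5 points leave many genes close to any profile. Nearest to Sesn1 was Arhgap19 (distance 0.503), which stood at 46.98, 0.32, 0.34, 0.90 and 4.66 FPKM, followed by Dhrs3 (0.978) and Cd300lb (1.06). Nearest to Sesn2 were Fam162a (0.349), with 20.02, 6.28, 17.29, 46.16 and 50.75 FPKM, Ccnf (0.405) and Foxo3 (0.526). Nearest to Ddit4 was the hexokinase gene Hk1 (0.141), at 19.49, 39.67, 44.59, 73.09 and 56.42 FPKM, before Gbp11 (0.255), listed at 0 at 0 h, and F830016B08Rik (0.318). Depdc5 was closest to Gon4l (0.103), Eif4ebp2 (0.112) and Zfp605 (0.131), and Flcn to Oard1 (0.282), Tmem199 (0.294) and Rab40c (0.295). By Pearson correlation Fam162a and Hk1 were again among the 3 nearest to Sesn2 and Ddit4, and none of the 3 was shared for Sesn1, Depdc5 and Flcn.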

How the data were processed

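The values are the authors' FPKM, per the file headers, in 1 deposited table with a column for each library and 2 decimals. The submitters' processing notes list Bowtie2, RSEM and GRCm38 but no version or role. The sources used here do not give annotation, filters or strand use. FPKM falls for a gene when others take more of the reads. The scale of differences was log2(FPKM + 1); it understates folds of low genes, and folds are ratios of FPKM. Counts used genes with a mean of at least 1 FPKM (9795 of 13339) and a 2-fold threshold. A gene can pass this mean through 1 high library, and its count as lower or higher then follows in part from the filter. With 1 library per time no test was run, and p-values were not computed.

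Depth was estimated from steps between low values of 160 to 181 values per library of genes with 1 transcript of 400 to 2500 nt. The best step, searched between 10 and 30 M (mega) reads with lengths reduced by 40 nt, was 18.9 to 19.2 M reads, at which 52.9% to 63.5% of values came out whole (tolerance 0.04 reads, or the rounding of 0.005 FPKM where that was more), against 29.5% to 31.1% by chance for a fixed step. A window of 30 to 60 M, added after the data were seen, had its best step at 37.7 to 39.0 M in 4 libraries and 56.2 M (on 15 values) at 8 h, so a depth 2 times as large is not told apart. As the step was chosen for the best match, the depth and the 95% Poisson intervals are approximate. Whole reads were not recovered, so no count model was used.

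The members and the 14 pathway lists (139 genes, 138 listed, 125 over the filter) were chosen with earlier results of these data known. Named are the members, in each list the 2 largest differences in each direction at 4 h and 24 h, any gene of lists of up to 12, and the 3 nearest time courses of members with a log2 range of at least 1; a gene that this rule names is not reported here. Lengths are those of the longest coding transcript in GENCODE M21; promoters and coordinates are RefSeq's (GRCm38.p6), and all 10 members matched. In promoter windows these letters were searched on both strands: GTAAACA (FoxO), TGATGCAAT and TGATGNAAT (ATF4 with C/EBP, the second holding the first), ACGTG (hypoxia core, which CACGTG holds), CACGTG (E-box), TGACGTCA and TGACGCAA (cAMP response type), and TATAAA on the given strand. In this order they occur in 3.17%, 0.167%, 0.816%, 16.6%, 6.02%, 1.55%, 0.438% and 7.59% of all windows. The counting step was tested on simulated data. Python 3.11.15, pandas 2.3.3 and scipy 1.17.1 were used.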

Additional observations from a re-analysis of the deposited data

How the results depend on the processing

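Of the 17 differences of members that were at least 2-fold, all kept their direction under the pseudocounts of 0.1 and 5 FPKM, libraries centred on the median gene, the length trend removed and no filter. With pseudocounts of 0.1 and 5 FPKM 17 and 8 of the 17 were still 2-fold or more. Centred, 13 were, and with the length trend removed 14, whereas without the filter the 17 were bound to stay. Member counts moved as follows. At 4 h against 0 h, higher members numbered 1 in place of 0 with a pseudocount of 0.1, with centring and without the length trend, and lower members 5 in place of 3 with a pseudocount of 0.1. With a pseudocount of 5 or a mean of at least 5 FPKM (5 members left), 0 were higher at 24 h than at 0 h and 2 higher at 24 h than at 4 h. Of the 125 pathway genes over the filter, 53 were lower at 4 h than at 0 h, beside 38.1% of all genes. This was 33 with a pseudocount of 5, 22 centred and 25 with the length trend removed. At a mean of at least 5 FPKM it was 34 of the 91 left, beside 2431 of 6853 among all genes. Against 4 h, 44 of the 125 were higher and 8 lower at 24 h, beside 25.0% and 8.19% of all genes. With a pseudocount of 5, 28 were higher, and under either scaling (centred or length trend removed) 24 were higher and 19 lower. Over all 9795 genes, 4 h against 0 h gave 2108 higher and 1315 lower after centring, and 1976 lower with a pseudocount of 5. Without the length trend 1925 of 9734 were higher and 1153 lower. At a mean of at least 5 FPKM 2431 of 6853 were lower. A pseudocount of 5 gave 715 higher and 841 lower at 24 h against 0 h, and 839 higher at 24 h against 4 h. The latter count was 945 centred, 935 with the length trend removed and 1517 of 6853 at a mean of at least 5 FPKM. Lower genes were 1503 centred and 1471 with the length trend removed. No paired analysis was possible because each time point has 1 library. Depth limits Sesn3 and the 4 h value of Sesn1 most. The causes of these shifts were not tested.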

Other observations

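Targets of the glucocorticoid receptor, which is known to act on Ddit4, were split. Of 5 over the filter, 1 was at least 2-fold higher and 3 lower at 4 h than at 0 h. Among all 9795 genes these shares were 12.2% and 38.1%. After centring 2 of the 5 were higher and 2 lower, beside 2108 and 1315 of all genes. At 24 h against 0 h 1 was higher and 2 lower, beside 11.3% and 14.5% of all genes. Tsc22d3 (GILZ), an anti-inflammatory leucine zipper protein, stood at 49.94 FPKM before LPS, then 1.54, 1.10, 3.30 and 17.74 after 4, 8, 12 and 24 h, and the clock gene Per1 at 6.46, 0.38, 3.54, 10.48 and 8.45. The phosphatase gene Dusp1 went the other way, with 9.56, 250.78, 124.81, 99.02 and 106.96. The receptor gene Nr3c1 itself had 16.01 FPKM at 0 h and between 30.31 and 40.88 afterwards.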
